A study of Mus musculus with 33 samples.

Results

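The comparison described here is that of enteric neural crest cells (ENCCs) cultured with and without GDNF, each treated well set against the untreated well of the same gut. ENCCs carried Wnt1-Cre and a Cre-dependent YFP in the Rosa26 locus on a C57BL/6 background, and were sorted for YFP from guts of embryonic day 14.5. Cells of 1 gut filled both of its wells, which were coated with fibronectin and held FGF and EGF, each at 20 ng/ml as the labels are read here. In 1 of these wells 50 ng/ml GDNF was added. The untreated wells are thus cells under FGF and EGF, not unstimulated cells, and the length of culture is not stated in the labels. Wnt1-Cre labels the neural crest lineage as a whole, so neurons, glia and progenitors are mixed in each well. Of the 33 arrays of the series, 25 held ENCCs, and 24 of these formed pairs: 8 pairs in batch 1 (guts 1 and 3 to 9) and 4 pairs in batch 2 (guts 2, 3, 8 and 9). The differences of guts 3, 8 and 9, which were read in both batches, were averaged, so that every gene had 9 differences. All 18193 genes with a single symbol were kept, with no filter on low values. Fewer cells of a type and less RNA per cell cannot be told apart in such bulk samples.

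GDNF is a secreted ligand that binds the GPI-anchored co-receptor Gfra1 and so activates the receptor tyrosine kinase RET. Phosphorylated RET docks adaptor proteins that feed the RAS-ERK, PI3K-AKT and phospholipase C pathways. In the gut this signal is needed for ENCCs to survive, migrate and colonise the bowel, and GDNF is also known to promote their differentiation into neurons.

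Every value is a score, the rank of a probe set within its array turned into a normal quantile, as the values themselves show. The labels do not say how the scores were made. Each probe set appears centred on the RNAs read in both batches: in batch 1 its mean over those 7 arrays varied between probe sets with an SD of 0.0585, against 0.369 over the other 10 ENCC arrays. The median SD of a probe set over the 25 ENCC arrays was 0.978, so a difference of 1 is about 1 such SD. It is no fold change, so levels of different genes are not compared. Whole gut arrays served as a check of the sorted cells. Of 18 ENCC, neuron and glia markers, 6 were below all ENCC wells in all whole guts and 0 were above. In contrast, 20 of 25 epithelial, 11 of 18 endothelial and 6 of 9 mesothelial markers were above all ENCC wells. The shares were smaller for macrophage and leukocyte (7 of 17), gut mesenchyme (6 of 18), erythroid (3 of 13) and smooth muscle markers (2 of 15). For most markers of these cells the check thus does not set the ENCC wells fully apart from whole gut. Arrays of the same RNA in both batches correlated over named probe sets at 0.143 to 0.362, and the untreated well of gut 3 was the lowest of the 7. In batch 2 the array labelled as the untreated well of gut 3 correlated higher with the untreated wells of guts 4 (0.184) and 5 (0.16) in batch 1 than with its own repeat (0.143). The array labelled as the untreated well of gut 2 in batch 2, which has no repeat, correlated at 0.44 with the untreated well of gut 3 in batch 1, above all 7 repeats of 1 RNA. The labels of both arrays are therefore in doubt, and they were kept as given. Without the batch 2 pairs of guts 2 and 3, an alternative added after the data were seen, 8 guts remained, and limma called 3201 genes higher and 2272 lower, with 2317 and 1328 of 1 sign in all 8. All 86 lists described below then kept their median within 1 SD between guts. The hybridisation controls, spiked in at a fixed amount, differed between the wells of a gut by -2.18 to 0.651. They were lower in the treated well in 6 of 9 guts, and their part in the results was not tested beyond a fit that carried them as a covariate.

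GDNF changed the scores of a large share of genes. At an adjusted p under 0.05 in limma, 3321 genes were called higher (18.3% of 18193) and 2404 lower (13.2%). The stricter count of genes with the same sign in all 9 guts was 2130 higher (11.7%) and 1117 lower (6.14%). For 817 genes all 9 treated wells lay above all 9 untreated wells (4.49%), and for 148 they lay below (0.813%). Genes higher in every gut had a median difference of 1.35, and genes lower in every gut one of -1.15, against 0.00548 over all genes. The weakest gut exceeded a difference of 1 in 315 of the higher genes, but in only 25 of the lower ones. The spread between guts was similar, with a median SD of 0.541 for higher and 0.579 for lower genes. Of the genes with 1 sign in all guts, 2112 of 2130 and 1097 of 1117 were also called by limma, while 2516 called genes had at least 1 gut of the other sign. Where such a gene had several probe sets, all of them had the sign of the gene's mean in 88.5% of higher and 91.1% of lower genes, against 59.9% of all genes with several probe sets. The genes were chosen by the sign of that mean, so these medians and shares describe the choice and give no support of their own.

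The promoters of these genes give a view that the scores did not use. RefSeq (GRCm38.p6) held a promoter of 300 bases, from 250 before to 50 after the start site, for 14452 of the 18193 genes. Among them were 1705 of the genes higher and 894 of the genes lower in all guts. In total 8 motifs were searched on both strands, chosen with the shares known, and the shares are descriptions without a test. The windows below hold 80 bases upstream of a start site, 5′ to 3′ in the direction of the gene, with the motif in capitals. They overlap no gene span of the RefSeq table. The letters TTCAGCACC, the left part of the RE1 element bound by the neuronal repressor REST, stood in 1.06% of higher genes (18 genes), in 0.112% of lower genes (Gadd45a alone, named after its value was seen) and in 0.491% of all. Among the 18 were Syn1, a synaptic vesicle protein, and Dner, a Notch-binding surface protein of neurons. Both, like the examples printed below, were picked by hand among the holders of a motif. They do not stand for all 18.
Syn1: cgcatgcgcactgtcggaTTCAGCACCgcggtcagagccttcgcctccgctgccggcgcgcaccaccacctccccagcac
Dner: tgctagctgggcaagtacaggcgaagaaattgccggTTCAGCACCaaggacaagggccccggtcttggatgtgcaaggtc
These windows lie at chrX:20921089-20921168 and chr1:84696328-84696407, both on the minus strand. The cAMP response element TGACGTCA, bound by CREB, was found in 4.16% of higher genes, 2.91% of lower genes and 2.92% of all. Its holders include genes of dense-core granules (Scg2 and Chgb) and of microtubule transport (Tubb2a and Kif5c).
Scg2: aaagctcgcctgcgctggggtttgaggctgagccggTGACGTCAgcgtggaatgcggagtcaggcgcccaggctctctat
Chgb: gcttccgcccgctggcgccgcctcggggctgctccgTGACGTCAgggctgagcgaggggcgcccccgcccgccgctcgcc
Tubb2a: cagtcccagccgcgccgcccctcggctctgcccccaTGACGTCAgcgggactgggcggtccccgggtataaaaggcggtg
Kif5c: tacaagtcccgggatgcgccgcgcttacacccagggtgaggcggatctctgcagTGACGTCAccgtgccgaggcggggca
They lie at chr1:79440051-79440130 (minus), chr2:132781534-132781613 (plus), chr13:34078024-34078103 (minus) and chr2:49619206-49619285 (plus). Elements of the unfolded protein response were also searched. TGACGTGG, bound by ATF6 and XBP1, stood in 1.45% of lower, 0.880% of higher and 0.990% of all genes. The longer ER stress element, CCAAT and CCACG with 9 bases between them, stood in 3 lower genes (0.336%), 1 higher gene (0.0587%) and 0.138% of all. The examples are a coat subunit (Copb1), a retrieval receptor (Kdelr3) and the ER chaperones Calr, Dnajc3 and Creld2. In Copb1, Kdelr3, Calr and Creld2 the motif is on the opposite strand and so reads as the reverse complement.
Copb1: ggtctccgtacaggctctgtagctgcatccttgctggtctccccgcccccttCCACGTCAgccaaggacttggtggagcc
Kdelr3: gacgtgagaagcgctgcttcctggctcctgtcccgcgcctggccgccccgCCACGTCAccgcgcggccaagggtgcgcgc
Calr: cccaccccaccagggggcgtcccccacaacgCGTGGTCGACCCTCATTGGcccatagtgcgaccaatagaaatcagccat
Dnajc3: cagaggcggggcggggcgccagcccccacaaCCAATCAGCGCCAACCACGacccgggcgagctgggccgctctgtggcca
Creld2: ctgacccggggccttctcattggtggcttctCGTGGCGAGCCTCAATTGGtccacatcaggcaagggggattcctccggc
They lie at chr7:114254681-114254760 (minus), chr15:79516328-79516407 (plus), chr8:84847045-84847124 (minus), chr14:118937796-118937875 (plus) and chr15:88819489-88819568 (plus). The ETS letters CCGGAAG were in 13.5% of higher, 18.3% of lower and 15.0% of all promoters. The AP-1 letters TGACTCA were in 4.22%, 4.36% and 5.34%, the E-box TCACGTGA in 2.05%, 1.68% and 1.63%, and TATAAA in 8.39%, 9.28% and 11.5%. A match says that these letters are in the window, not that a factor binds there. The median gene span was 23.5 kb for higher, 28.2 kb for lower and 20.3 kb for all genes, and the median share of G and C in the promoter was 61.3%, 62.7% and 58.7%.

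Genes were ranked by the difference in their weakest gut, here called evenness, which depends on size as well as on spread. Beyond the 10 largest differences each way, the 30 genes that rose most evenly include several known from neurons and regulated secretion. Of the 30, 8 are in a list used below, and those with a well-known role are described here. The most even was Tmem59l, a brain-enriched Golgi protein. Its score was -1.31 to -0.74 (median -1.01) in untreated wells and 0.70 to 1.03 (median 0.86) in treated wells. The wells did not overlap, and the difference was 1.87 ± 0.14 (SD, n = 9; adjusted p = 6.45e-05). Chn1, the Rac GTPase-activating protein alpha-chimaerin that acts in axon guidance, had a similar SD, at 1.68 ± 0.14. Its difference was 1.53 in its weakest and 1.94 in its strongest gut. Synaptic and axonal genes were among them. Rims1, an active-zone scaffold, rose by 1.85 ± 0.38, and Slitrk4 and Slitrk1, adhesion proteins that organise synapses, by 1.79 ± 0.20 and 1.90 ± 0.31. Cnih2, which escorts AMPA receptors, rose by 1.88 ± 0.37, and Iqsec3, an ARF exchange factor of inhibitory synapses, by 1.74 ± 0.37. Adgrb3, an adhesion receptor for C1q-like proteins, rose by 1.87 ± 0.35, and its lowest treated well (-0.69) lay near the highest untreated one (-0.68). Resp18 and Vgf, cargo of dense-core granules, rose by 1.88 ± 0.22 and 1.76 ± 0.17. Aplp1, the neuronal relative of the amyloid precursor, rose by 1.86 ± 0.22 and Sez6l2, a transmembrane protein with complement-control domains, by 1.99 ± 0.56. Signal carriers were among them as well. Rgs7, which switches off Go and Gi, had scores of -1.44 to -0.66 (median -1.08) without and 0.60 to 1.15 (median 0.82) with GDNF, a difference of 1.88 ± 0.26. Gng8, a G protein gamma subunit, rose by 1.76 ± 0.27 and Rap1gap2, which inactivates RAP1, by 1.74 ± 0.22. Cend1, a protein tied to cell cycle exit of neuronal precursors, rose by 1.77 ± 0.19 over 4 probe sets. Slc25a22, the mitochondrial glutamate carrier, rose by 1.90 ± 0.20, and Kif3a, a motor of kinesin-2, by 1.73 ± 0.26. For Camsap3, which caps microtubule minus ends, the difference was 2.02 ± 0.36. In all genes named in this paragraph but Adgrb3 the lowest treated well was above the highest untreated well.

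**Figure D1:**
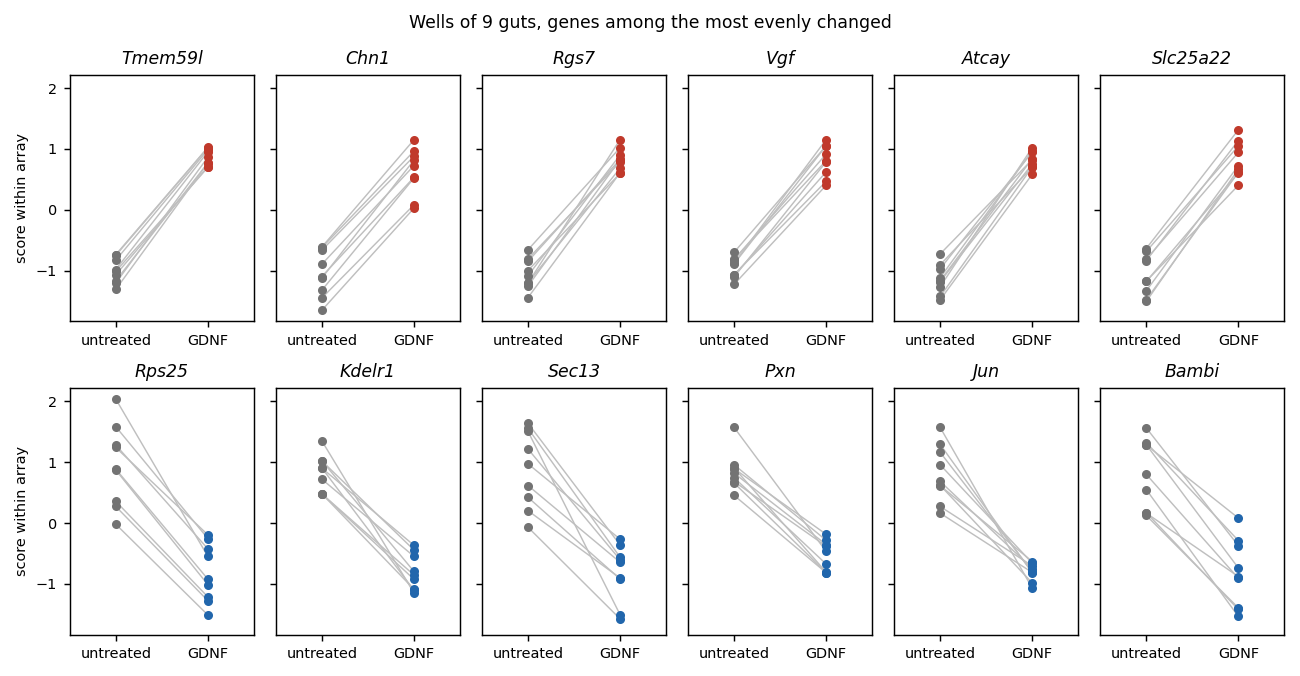
Scores of the untreated (grey) and the GDNF well (coloured) of each of the 9 guts for 6 genes among the most evenly higher and 6 among the most evenly lower; the y axis is the score within an array and a line joins the wells of a gut. Every line rises in the upper row and falls in the lower row; in all 12 genes the wells do not overlap between groups.

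Of the 30 genes that fell most evenly, 9 are in a list used below, and again those with a well-known role are described. Rps25, a protein of the small ribosomal subunit, led them. Its scores were -0.02 to 2.04 (median 0.89) in untreated and -1.51 to -0.19 (median -0.92) in treated wells, a difference of -1.76 ± 0.35 (adjusted p = 6.52e-05). Kdelr1, which returns chaperones from the Golgi to the ER, had scores of 0.48 to 1.35 (median 0.90) without and -1.15 to -0.37 (median -0.85) with GDNF. Both sets of wells stood apart, and the difference was -1.63 ± 0.41 (adjusted p = 8.99e-05). Sec13, a COPII cage protein, fell by 1.71 ± 0.60, and Txndc5, a disulfide isomerase of the ER, by 1.42 ± 0.28. Aga, a lysosomal hydrolase, fell by 1.71 ± 0.43, Lamp2, a lysosomal membrane protein, by 1.43 ± 0.52, and Ap3b1, an adaptor subunit that sorts cargo to lysosomes, by 1.78 ± 0.63. Plin3, which coats lipid droplets, fell by 1.60 ± 0.48. Pxn, the focal adhesion scaffold paxillin, fell by 1.39 ± 0.32, and Wipf1, a partner of WASP in actin assembly, by 1.39 ± 0.26. Prkg1, the cGMP-dependent protein kinase, fell by 1.48 ± 0.43. Genes at the receiving end of growth factor signals were also present: Bambi, a decoy receptor of BMP and TGF-beta signals, fell by 1.64 ± 0.36, Vasn, a trap for TGF-beta, by 1.48 ± 0.37, and Evc2, a ciliary protein of Hedgehog signalling, by 1.52 ± 0.39. Jun, a subunit of AP-1, fell by 1.62 ± 0.55, with untreated scores of 0.16 to 1.57 and treated scores of -1.07 to -0.63. Pcdh1, a protocadherin, fell by 1.68 ± 0.52, yet 1 treated well (0.89) lay above the lowest untreated one (0.61). The wells of Rps25, Kdelr1, Sec13, Txndc5, Aga, Lamp2, Plin3, Pxn, Prkg1, Bambi, Evc2 and Jun did not overlap, and those of Ap3b1, Wipf1 and Vasn did in part.

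To describe families, 76 gene lists and 10 marker lists were set up, holding 3325 genes in all, of which 498 were higher and 285 lower in every gut. The lists are described without a test. Counts of members that passed limma are to be read against the 18.3% and 13.2% of all genes, and counts of members with 1 sign in all guts against 11.7% and 6.14%. In 21 of the 76 lists the share of members higher in every gut was over 2 times that background, and in 14 the share lower in every gut was. Where a list is called higher or lower below, the counts say how many of its members passed limma.

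**Figure D2:**
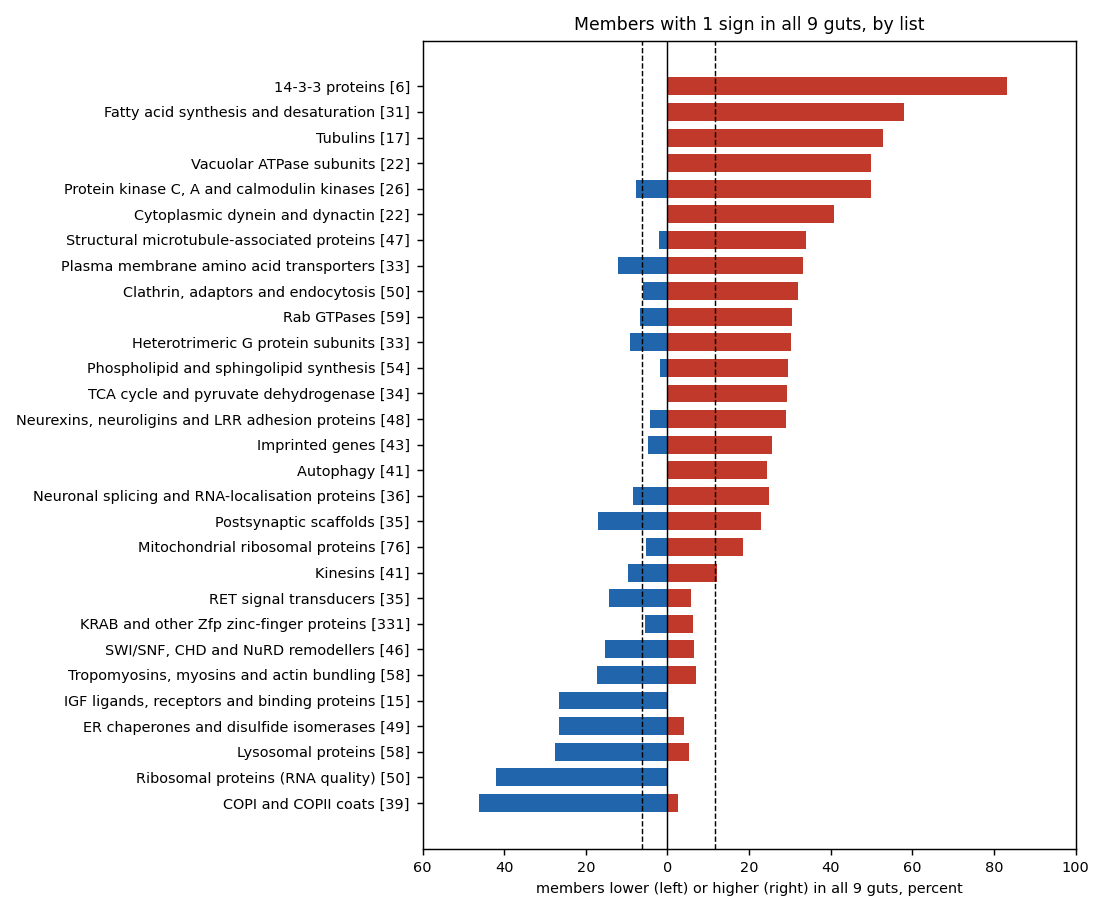
Share of each list's members that were higher in all 9 guts (right, red) or lower in all 9 guts (left, blue), in percent, for 29 of the lists, picked after their values were seen, with the number of measured members in brackets. Dashed lines mark the shares over all 18193 genes, 11.7% higher and 6.14% lower; of the lists drawn, the 14-3-3 proteins, fatty acid synthesis and tubulins extend farthest to the right, and the COPI and COPII coats farthest to the left.

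In the early secretory pathway more genes fell than rose. Of 39 measured proteins of the COPI and COPII coats and their cargo receptors, 19 fell and 1 rose (Arf5, 1.18); 18 were lower in all 9 guts, and the median difference was -0.75. Sec13 and Kdelr1 led, followed by Lman2, a lectin that carries glycoproteins out of the ER (-1.53 ± 0.44), and Sec24d, the COPII subunit that selects cargo (-1.51 ± 0.71). Lman2 scored 0.04 to 1.25 (median 0.88) without and -1.12 to -0.32 (median -0.98) with GDNF, and the wells did not overlap. The coatomer subunits Copb1 (-1.27 ± 0.72) and Copb2 (-1.25 ± 0.68) and the receptor Kdelr3 (-1.41 ± 0.83), named for their promoters after their values were seen, fell in all guts too. In batch 2 alone, with 4 guts, the mean of Copb1 was 0.157. In the ER lumen, 21 of 49 chaperones and disulfide isomerases fell and 4 rose, with 13 lower in every gut and a median of -0.63. Dnajb11, a co-chaperone of BiP, fell by 1.55 ± 0.75, P4hb, the founding disulfide isomerase, by 1.50 ± 0.79, and Selenos, part of the ER-associated degradation machinery, by 1.47 ± 0.51. Calr, Dnajc3 and Creld2, whose promoters are printed above, had differences of -1.13 ± 0.69, -0.92 ± 0.41 and -0.93 ± 0.42. Of the proteins that move chains into the ER and attach sugars, 10 of 33 fell, led by Ddost (-1.53) and Spcs3 (-1.37), and 2 rose (their median was 0.181 in batch 2 alone): Sec61a2 (1.56 ± 0.37) and Tusc3 (1.39). Of cytosolic chaperones 19 of 54 were higher, among them Dnaja1 (1.48) and Dnajb2 (1.37), and 8 lower, among them the small heat shock protein Hspb2 (-1.62) and Bag6 (-1.27).

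Genes of acid compartments moved both ways. Of 22 subunits of the vacuolar ATPase, the pump that acidifies lysosomes and synaptic vesicles, 13 rose and 2 fell, and 11 were higher in every gut, all 11 of them with non-overlapping wells; the median difference was 0.99. Atp6v0d1 scored -1.45 to -0.52 (median -0.92) in untreated and 0.62 to 1.18 (median 0.78) in treated wells, a difference of 1.76 ± 0.30 (adjusted p = 6.45e-05). Atp6v0e2 (1.89 ± 0.40), Atp6v1g2 (1.72 ± 0.34) and Atp6ap2 (1.57 ± 0.53), all subunits or partners of the pump, rose as well. Lysosomal hydrolases and membrane proteins fell: 22 of 58 were lower and 4 higher, with 16 lower in every gut and a median of -0.43. Besides Laptm4b (-1.54 ± 0.40), Hgsnat, which acetylates heparan sulfate for its breakdown, fell by 1.59 ± 0.75 and Scarb2, the transporter of glucocerebrosidase, by 1.55 ± 0.74. The acid glucosidase Gaa went against the list, with 1.55 ± 0.50 and 9 of 9 guts higher. Of 41 autophagy genes 13 rose and 3 fell, and 10 were higher in every gut. Atg9a, the membrane protein that seeds autophagosomes, rose by 2.01 ± 1.09, Map1lc3a by 1.64 ± 0.47, Gabarapl2 by 1.54 ± 0.56 and Gabarapl1, another of the ubiquitin-like tags of autophagosomes, by 1.43 ± 0.47. The spread of Atg9a was wide, from 0.26 in its weakest to 3.33 in its strongest gut.

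Tubulins, microtubule-associated proteins and dynein subunits rose in part and seldom fell. Of 17 tubulins 12 rose and 0 fell in limma (2 were lower at an unadjusted p under 0.05), with a median of 0.95. Tuba1a, the main alpha tubulin of young neurons, scored -1.78 to -0.22 (median -0.76) without and 0.45 to 0.94 (median 0.78) with GDNF, a difference of 1.65 ± 0.49. Tubb4a rose by 1.76 ± 0.40 and Tubb3, the neuronal beta tubulin, by 1.80. Tubb2b had a similar mean but a wide spread (1.86 ± 1.30), and its weakest gut was at 0.04. Tubulin genes are alike in sequence, so probe sets may share signal between them. Of 47 structural microtubule-associated proteins 23 rose and 1 fell (Nav2, -0.59), whose call ended without gut 5, 7 or 8 (adjusted p = 0.0566, 0.0561 and 0.0532 in limma) or without the batch 2 pair of gut 3 (0.0618). Mapt, the axonal protein tau, rose by 1.96 ± 0.67 over 4 probe sets, Map7d2 by 1.65, and Map1a, a dendritic protein, by 1.61. Cytoplasmic dynein and its activator dynactin, which carry cargo towards the cell body, had 11 of 22 subunits higher and 1 lower (Nde1, -0.94), and a median of 0.91. Dctn2 led with 1.84 ± 1.16, ahead of the dynein-2 chain Dync2li1 (1.67 ± 0.75), Dync1li1 (1.43 ± 0.64) and Dynlt3 (1.37). Kinesins did not follow as a family: 10 of 41 rose and 6 fell, with a median of 0.02. Kif3a, Kif5c (1.56 ± 0.74), Kif3c (1.38) and Kifc2 (1.28), motors of axonal or dendritic transport, were on the higher side and Kif1c (-1.59 ± 0.39) and Kif26b (-1.06) on the lower.

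The actin lists moved less evenly. Of 58 tropomyosins, myosins and actin-bundling proteins 25 fell and 6 rose, with a median of -0.54. Myl12a, a regulatory light chain of non-muscle myosin, fell by 1.68 ± 0.70, Zyx, the focal adhesion protein zyxin, by 1.52, Flnc, a filamin, by 1.49 and Tpm4, a tropomyosin, by 1.28. Tagln3, the neuronal transgelin (1.74), Pdlim4 (1.54) and Myl12b (0.92 ± 0.45) rose in every gut. Myl12a and Myl12b are near-identical copies, so their opposite signs are uncertain. Gut mesenchyme markers moved in part with this list: 7 of 18 fell and 1 rose, and their mean score ranged from -0.421 to 0.806 in untreated, -0.905 to 0.723 in treated wells and 0.949 to 1.07 in whole guts. Their part in these results was not tested. Spectrins, ankyrins and band 4.1 proteins, the submembrane lattice of axons, had 9 of 18 higher and 3 lower, with Add2 (1.53) and Sptbn4 (1.52) next to Ablim3. Nucleators were mixed, with 8 of 27 higher, led by Nckap1l (1.56) and Abi2 (1.41), and 4 lower, led by Wasf2 (-1.32 ± 0.45) and Fhod1 (-1.07).

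Among genes of membrane traffic at the cell surface more rose than fell. Of 59 Rab GTPases 26 rose and 8 fell, 18 were higher in every gut, and 14 had non-overlapping wells. Rab9b scored -1.71 to -0.70 (median -1.11) without and -0.01 to 1.07 (median 0.72) with GDNF, a difference of 1.78 ± 0.26. Rab15, of recycling endosomes, rose by 1.79 ± 0.50, Rab36 by 1.76 ± 0.61 and Rab6b, the neuronal form of a Golgi Rab, by 1.72 ± 0.55. Rab7b, which acts between late endosomes and the Golgi, fell by 1.47 ± 0.51 and Rab5c, of early endosomes, by 1.10 ± 0.58. Clathrin, adaptor and endocytosis genes had 24 of 50 higher and 4 lower, with a median of 0.63. Next to Smap2, Amph, the synaptic amphiphysin, rose by 1.84 ± 0.54, Ap1m1 by 1.76 ± 0.73 and Dnm1, the neuronal dynamin that pinches off vesicles, by 1.71 ± 0.56. Ap3b1 was the strongest of the 3 that were lower in every gut. Sorting nexins and retromer subunits, which recycle receptors from endosomes, had 13 of 35 higher, led by Snx32 (1.70) and Snx14 (1.62), and 3 lower, among them Snx5 (-1.36).

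The adaptors and kinases that sit directly below RET did not move one way. Of 35 RET signal transducers 6 rose and 6 fell in limma, shares (17.1% each) close to the 18.3% and 13.2% of all genes. The median was -0.25. By sign in all 9 guts the shares were farther from those of all genes. There 5 were lower (14.3%, against 6.14%) and 2 higher (5.71%, against 11.7%). Pdpk1, the kinase that activates AKT, rose by 1.38 ± 0.73 with untreated scores of -1.55 to 0.11 (median -1.33) and treated scores of -0.86 to 1.34 (median 0.64), which overlap. Grb2, the adaptor that brings SOS to the receptor, rose by 1.15 ± 0.77 in 8 of 9 guts. The scaffold Frs3 (1.13 ± 0.63), the docking protein Dok5 (1.14), the kinase Src (0.96) and the exchange factor Sos2 (0.86) rose as well. The call of Src ended without gut 1, 3, 4, 6 or 7 (adjusted p = 0.0735 to 0.115 in limma) and that of Sos2 without gut 6, 7 or 8 (0.0595 to 0.0676) or without the batch 2 pair of gut 3 (0.302). Ptpn11, the phosphatase SHP2 that promotes RAS signalling, fell by 1.10 ± 0.53 in 9 of 9 guts; it scored 0.21 to 0.97 (median 0.71) without and -1.16 to 0.38 (median -0.36) with GDNF. Akt2 (-1.13 ± 0.42), the docking protein Dok4 (-1.25 ± 0.78) and the SRC-family kinase Yes1 (-0.96 ± 0.69) were lower in every gut, and the adaptors Grb10 (-1.18) and Gab1 (-0.90) in 8 of 9. The other 23, which include the Shc adaptors, Akt1, Plcg1 and the PI3K subunits, did not pass the test. Further down the cascade, 12 of 59 RAS regulators, RAF and MAP kinases rose and 11 fell, with a median of 0.02. The share that rose, 20.3%, was near the 18.3% of all genes, and the share that fell, 18.6%, was above the 13.2%. Map2k4, a kinase of the JNK and p38 branches, rose by 1.56 ± 0.47, Rasl10b, a RAS-like GTPase, by 1.71 ± 0.33, and Mapk11 and Mapk12, p38 kinases, by 1.55 and 1.42. The atypical kinase Mapk4 fell by 1.32 ± 0.58 and Map3k4 by 1.21.

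Kinases of cAMP and calcium and the proteins that bind phosphorylated targets rose more evenly. Of 26 PKC, PKA and calmodulin kinase genes 14 rose and 2 fell, and 13 were higher in every gut, 8 with non-overlapping wells; the median was 1.04. Prkar1b, a regulatory subunit of PKA found in neurons, scored -1.33 to -0.50 (median -0.93) without and 0.56 to 1.00 (median 0.69) with GDNF. The difference was 1.69 ± 0.25 over 5 probe sets. Camk2b rose by 1.61 ± 0.76, Prkar2b by 1.52 ± 0.44 and Prkcz, an atypical PKC of cell polarity, by 1.49 ± 0.33. Camk1d (-1.24) and Prkcd (-0.99) fell in every gut, and the call of Prkcd ended without gut 2 or 5 (adjusted p = 0.0553 and 0.053 in limma). All 6 measured 14-3-3 proteins, which hold phosphorylated partners, rose, 5 of them in all 9 guts. Ywhab rose by 1.59 ± 0.30 over 6 probe sets and Ywhaq by 1.43 ± 0.53 over 8. Of 33 heterotrimeric G protein subunits 11 rose and 5 fell. Gng3 rose by 1.82 ± 0.23, Gnaz by 1.79 ± 0.39 and Gnai1, an inhibitory alpha subunit, by 1.75 ± 0.37, while Gna14 (-1.48), Gng10 (-1.30) and Gnai2 (-1.05 ± 0.50) fell. Of 21 RGS proteins, which turn these subunits off, 6 rose, led after Rgs7 by Rgs17 (1.76 ± 0.29) and Rgs11 (1.71 ± 0.67), and 2 fell, of which Rgs4 (-1.50 ± 0.58) was lower in every gut. Among 34 protein tyrosine phosphatases 8 rose and 4 fell, and Ptprn2 (2.03) and Ptprn (1.68), proteins of dense-core granules, led.

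Other growth factor families were read as well. Of 15 IGF ligands, receptors and binding proteins 0 rose (1 was higher at an unadjusted p under 0.05) and 7 fell in limma, with a median of -0.78. Igf2r, which clears IGF2, fell by 1.31 ± 0.70, Igf1 by 1.24 ± 0.75 and the binding protein Igfbp5 by 1.18 ± 0.74, and in each the weakest gut was close to 0 (-0.05, -0.05 and -0.03). The wells of Igf1 overlapped widely, at -1.10 to 1.67 without and -2.14 to 1.32 with GDNF. Gut mesenchyme markers, of which 7 of 18 fell, had medians of -1.21, -0.94, -1.17 and -0.82 in guts 2, 3, 6 and 8, where the IGF medians were -1.35, -1.54, -1.61 and -0.97. In guts 1 and 4 they were at -0.17 and 0.21, and the IGF medians at -0.08 and -0.07. In guts 5, 7 and 9 the mesenchyme markers were at -0.09, -0.19 and -0.08, and the IGF medians at -0.87, -1.07 and -0.35. Their part in the fall of the IGF genes was not tested. Of 38 TNF ligands and receptors 1 rose and 6 fell (15.8%, near the 13.2% of all genes). Eda2r fell by 1.58 ± 0.73 and Tnfrsf1a, the main TNF receptor, by 1.32 ± 1.17, with 1 gut at -4.31. Of 27 FGF genes 6 rose (22.2%) and 3 fell (11.1%), shares near those of all genes. Those that rose most were Fgf13 (1.82 ± 0.48) and Fgf12 (1.62 ± 0.38), intracellular FGFs that bind sodium channels, followed by Fgf9 (1.36), and the decoy receptor Fgfrl1 (-1.47) and Fgf5 (-1.18) fell.

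In the nucleus, more chromatin remodellers fell than rose. Of 46 SWI/SNF, CHD and NuRD genes 15 fell and 4 rose, with a median of -0.56; 7 were lower in every gut, among them Chd2 (-1.25), Smarcd2 (-0.95), Smarca4 (-0.94 ± 0.68), the BRG1 ATPase, and Actl6a (-0.92 ± 0.59). Those that rose in every gut were Chd5, a neuronal remodeller (1.98 ± 0.98), Dpf1, the BAF45b subunit of the neuronal BAF complex (1.59 ± 0.82), and Smarca1, the SNF2L ATPase (1.55 ± 0.22). Polycomb and Trithorax genes, whose median was -0.31 and 0.054 in batch 2 alone, had 14 of 43 lower, with Aebp2 (-0.95), Phc2 (-0.91) and Kmt2e (-0.91) lower in every gut, and 6 higher, with Cbx6 at 1.45. Of 33 Mediator genes 10 fell and 9 rose, and Med12l (1.51) and its relative Med12 (-1.15) lay at opposite ends. Of 40 nuclear receptors 8 rose (20.0%) and 6 fell (15.0%), near the shares of all genes, with Nr0b1 (1.63) and Nr4a1 (1.62) at the top and Rora (-1.24) and Nr2f1 (-1.21) at the bottom. Of 70 LIM, POU, PBX, MEIS and DLX homeobox factors 4 rose (Pou3f1, 1.40; Dlx1, 1.08) and 14 fell (Msx1, -1.49; Tgif1, -1.33; Irx2, -1.33). Of 50 bHLH factors and ID proteins 2 rose (Mlx, 1.65, in every gut) and 12 fell, with Olig1 (-1.33) and Tcf4 (-1.19) lower in every gut. Of 23 KLF and SP factors Klf7, a factor of axon growth, rose (1.61) and Klf2 (-1.64), Sp1 (-1.40) and Klf3 (-0.84) were lower in every gut. Among 331 Zfp zinc-finger genes 46 rose and 45 fell, shares (13.9% and 13.6%) near the background, and Zfp512 (1.80) and Zfp874a (-1.51) stood at the ends.

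Among RNA-binding proteins, members of both directions were found. Of 36 neuronal splicing and RNA-localisation proteins 10 rose and 9 fell, and 7 had non-overlapping higher wells. Celf6 rose by 1.90 ± 0.51, Celf5 by 1.86 ± 0.36, Stau2, which carries mRNA into dendrites, by 1.79 ± 0.41 and Rbfox3, known as NeuN, by 1.71 ± 0.26. Stau2 scored -1.72 to -0.61 without and 0.49 to 0.98 with GDNF. Celf2 (-0.93) and Msi2 (-0.75), a progenitor protein, fell in every gut. General SR and hnRNP proteins had 9 of 43 lower and 2 higher (Srsf12, 1.75; Ptbp2, 1.51 ± 0.47), and the core spliceosome 14 of 51 lower, led by Snrpe (-1.46) and Prpf6 (-1.20), and 4 higher, led by Snrpn (1.77 ± 0.75), its neuronal form of SmB. Cytosolic ribosomal proteins, which can also follow RNA quality, had 33 of 50 lower and 0 higher in limma (1 was higher at an unadjusted p under 0.05), and their mean score fell from 0.187 to 1.01 in untreated wells to -0.793 to 0.116 in treated ones, in 9 of 9 guts. Rps27l (-1.60 ± 0.66), Rpl13a (-1.56) and Rplp2 (-1.56) followed Rps25. Whether RNA quality had a part in this was not tested. Ribosome biogenesis factors had 20 of 91 lower, led by Tsr1 (-1.36) and Rrn3 (-1.34), and 11 higher. Mitochondrial ribosomal proteins rose instead, with 31 of 76 higher and 6 lower and a median of 0.54; Mrpl16 (1.44) and Mrpl37 (1.29) led and Mrpl23 (-1.62) opposed them. Of 21 cytosolic tRNA synthetases 9 rose, with Yars (1.49) and Wars (1.36) at the top, and 3 fell. Of 60 translation factors 11 rose, led by Eef1a2, the elongation factor of neurons and muscle (1.71), and 12 fell, led by Eef1b2 (-1.76). The share that rose, 18.3%, was that of all genes, and the share that fell was 20.0%, against 13.2% of all genes.

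Among genes of ubiquitin transfer more rose than fell. Of 31 E2 enzymes 11 rose and 1 fell, with Ube2a (1.64 ± 0.35) and Ube2o (1.61) at the top. F-box proteins, the substrate receptors of SCF ligases, had 19 of 69 higher, led by Fbxl2 (1.71 ± 0.65) and Fbxl15 (1.65), and 5 lower, led by Fbxo28 (-1.43). Of 60 deubiquitinases 17 rose, led by Usp11 (1.71 ± 0.60) and the neuronal hydrolase Uchl1 (1.60), and 6 fell. Of 9 COP9 signalosome subunits 5 rose and 0 fell, none being lower even at an unadjusted p under 0.05 in limma, with Cops8 at 1.43.

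Genes of lipid synthesis rose. Of 31 genes of fatty acid synthesis, elongation and desaturation 23 rose and 1 fell (Hacd2, -1.20), 18 were higher in every gut and the median was 1.08. Elovl5, an elongase of polyunsaturated fatty acids, scored -1.72 to -0.37 (median -0.93) without and 0.26 to 1.14 (median 0.69) with GDNF, a difference of 1.62 ± 0.36 (adjusted p = 7.78e-05). Acsl6, which activates fatty acids in neurons, rose by 1.59 ± 0.40, Elovl4 by 1.58 ± 0.32 and Fads6 by 1.58 ± 0.60. Phospholipid and sphingolipid synthesis followed with 21 of 54 higher and 5 lower. Pcyt2, of phosphatidylethanolamine synthesis, rose by 1.69 ± 0.41, Lpin1, a phosphatidate phosphatase, by 1.69 ± 0.63 and Pcyt1b by 1.55. Fatty acid oxidation and peroxisomes did not share this: 13 of 62 rose and 11 fell, with a median of -0.02. Acot1 (1.78) and Acot7 (1.75), thioesterases, and Pex11a (-1.51) and Cpt2 (-1.29) were at the ends. Of 34 genes of the TCA cycle and pyruvate dehydrogenase 15 rose and 2 fell, with Idh1 (1.70 ± 0.43) and Dlat (1.50 ± 0.47) among them, and of 44 mitochondrial carriers 15 rose and 1 fell, Slc25a14 (1.68 ± 0.36) standing next to Slc25a22. Of 33 amino acid transporters of the plasma membrane 14 rose, with Slc6a15, a neuronal carrier of branched amino acids, at 1.84 and Slc36a4 at 1.73, and 4 fell, led by Slc7a6 (-1.54). Of 69 genes of glutathione, thioredoxin and the NRF2 response 21 rose and 10 fell, with Gstm6 (1.80) and Nqo2 (1.62) at one end and Mt2 (-1.57 ± 0.79) and Txnip (-1.48) at the other. Gstm genes are close copies, so the gene behind that signal is uncertain. Imprinted genes had 17 of 43 higher, among them Mkrn3 (1.78 ± 0.43), Snrpn, Meg3 (1.71 ± 0.74 over 11 probe sets) and Rian (1.69), and 7 lower, among them Igf2r and Cdkn1c (-1.15), the cyclin kinase inhibitor p57.

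At the cell surface, 23 of 48 neurexins, neuroligins and leucine-rich adhesion proteins rose and 4 fell, with a median of 0.67. Cntnap5a (1.91 ± 0.49), a contactin-associated protein, and Lrrtm4 (1.81 ± 0.41), which binds presynaptic partners, stood beside Slitrk1 and Slitrk4. Slitrk6 fell, by 1.55 ± 0.79 in 9 of 9 guts, and so did Tenm3 (-1.30). Postsynaptic scaffolds moved both ways: 14 of 35 rose, led by Dlg4, which encodes PSD-95 (1.81 ± 0.61), Lin7a (1.72), Apba2 (1.70) and Shank3 (1.56), and 7 fell, led by Homer2 (-1.12) and Dlgap4 (-1.09). Protocadherins were near the background, with 7 of 35 higher (Pcdhb9, 1.80; Pcdh11x, 1.70) and 6 lower. Clustered Pcdhb genes are close copies, so probe sets may cross-read. Of 23 TRP channels 9 rose and 0 fell (1 at an unadjusted p under 0.05 in limma), with Trpv2, a channel of stretch and heat, at 1.66 and Trpc4 at 1.29. Of 29 chloride and proton-gated channels 5 rose (17.2%) and 3 fell (10.3%), no more than among all genes, with Asic4 (1.92), Asic2 (1.62) and Asic1 (1.58), acid-sensing channels, at the top and Clic4 (-1.07) and Clic1 (-0.88) lower in every gut.

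In 17 pairs of related genes the members took opposite signs, and in some of these pairs the higher gene is a neuronal form. The pairs were picked after their values were seen, so their opposite directions are no evidence of a rule. In 9 of them both genes had 1 sign in all guts. The splicing repressor Ptbp1 fell by 0.81 ± 0.54 and its neuronal relative Ptbp2 rose by 1.51 ± 0.47, an exchange known, as background, from neuronal differentiation. In the BAF complex Actl6a fell and Actl6b, its neuronal counterpart, rose by 1.42 ± 0.97 in 8 of 9 guts. With the most reproducible probe set Actl6a was at -0.352 (adjusted p = 0.475 in limma), which ends its call. The call of Ptbp1 ended in batch 1 alone (-0.655, adjusted p = 0.074 in limma). Stau1 (-0.87 ± 0.56) and Stau2, Sec61a1 (-0.84 ± 0.53) and Sec61a2, Gnai2 and Gnai1, and Wasf2 and Wasf1 (1.40 ± 0.62) parted in the same way. So did Dlg1 (-1.08 ± 0.61) and Dlg4, Chn2 (-1.48 ± 0.66) and Chn1, Kif1c and Kif1a (1.68 ± 0.90, 8 of 9 guts), and Mt2 and Mt3, the brain metallothionein (1.57 ± 0.42). Subunits of the vacuolar ATPase did too, Atp6v0e (-1.01 ± 0.69) against Atp6v0e2 and Atp6v0a2 (-1.06 ± 0.54) against Atp6v0a1 (1.25 ± 0.34), with Atp6v0e at 0.254 in batch 2 alone, as did Gabarap (-1.11 ± 0.82) against Gabarapl1. Enzymes of lipid synthesis parted as well: Agpat2 (-1.52 ± 0.62) and Agpat4 (1.40 ± 0.72), and Cers2 (-0.96 ± 0.79) and Cers4 (1.40 ± 0.61). Nme2 (-1.25 ± 0.68) and Nme1 (1.20 ± 0.58), like Myl12a and Myl12b, are near-identical copies and their signs are uncertain. In all 17 pairs the higher gene's difference exceeded the lower gene's in 9 of 9 guts.

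**Figure D3:**
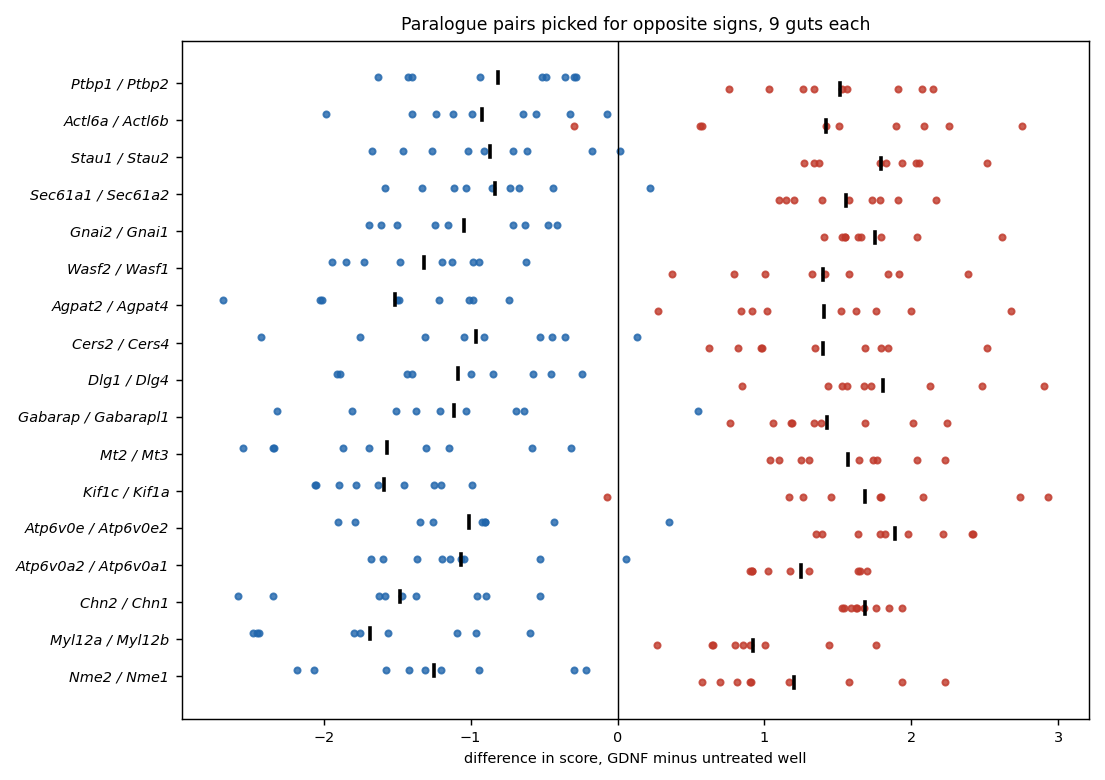
Difference in score (treated minus untreated well) in each of 9 guts for both genes of 17 paralogue pairs picked for opposite signs; blue points are the gene that was lower on average, red points the one that was higher, and bars mark the means. In every pair the means lie on opposite sides of 0, while single guts cross 0 in 8 pairs.

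Markers of the sorted cells and of other cell types were read in the same wells. Of the ENCC, neuron and glia markers 10 of 18 rose and 0 fell (1 at an unadjusted p under 0.05 in limma). The mean score of the list was -0.881 to 0.110 in untreated and 0.153 to 0.519 in treated wells, which do not overlap. This mean pools genes that moved unlike each other. Untreated and treated medians were -1.17 and 0.86 for the neuronal Elavl3 and -0.91 and 0.75 for Stmn2. The neuronal Elavl4 (-0.12 and -0.06) and Prph (-0.56 and -0.22) moved less. Medians were 0.26 and 0.14 for Sox10, 0.60 and 0.40 for Ednrb and -0.28 and -0.26 for the glial S100b. For the glial Fabp7 they were -0.86 and 0.89, and for the glial Gfap -0.73 and 0.24. Epithelial markers (3 of 25 higher, 0 lower), endothelial markers (2 of 18 higher, 1 lower), mesothelial markers (2 of 9 higher, 1 lower) and macrophage markers (3 of 17 higher, 2 lower) stayed at or below the shares of all genes, apart from mesothelium at 22.2% of members higher. Mean scores of these lists reached at most 0.49 in any ENCC well and were at least 1.23 in whole guts. Of 13 erythroid genes 0 rose and 1 fell, and of 15 smooth muscle genes 1 rose and 1 fell. Of the 27 proliferation markers 0 were called either way in limma, and 0 had an unadjusted p under 0.05. Their median was 0.15. Some other lists had a smaller share of members called higher than the 18.3% of all genes. These were claudins and connexins (3 of 34, 8.82%), septins (1 of 12, 8.33%) and forkhead factors (3 of 37, 8.11%). Chemokines (4 of 33, 12.1%) and histone genes (1 of 27, 3.70%) were others. Against the 13.2% of all genes called lower, histone genes were above (5 of 27, 18.5%) and forkhead factors near (5 of 37, 13.5%). Septins (1 of 12, 8.33%), chemokines (1 of 33, 3.03%) and claudins and connexins (0 of 34, 2 at an unadjusted p under 0.05 in limma) were below. A score near 0 is close to a probe set's mean over the RNAs read in both batches, and not an absence of the RNA.

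Several lists had 1 direction in all guts, and gut 1 departed in others. Medians of the vacuolar ATPase (0.68 to 1.21), tubulins (0.66 to 1.49), fatty acid synthesis (0.82 to 1.58), COPI and COPII coats (-1.28 to -0.35) and ribosomal proteins (-1.48 to -0.39) had the same sign in all 9 guts. Gut 1 departed in lists of the cell cycle, muscle and some housekeeping genes. The median of the proliferation markers was 2.56 in gut 1 and -1.11 to 0.27 in the others, that of smooth muscle markers 1.28 against -0.95 to 0.30, and that of kinesins 0.93 against -0.22 to 0.03. The median of cytosolic tRNA synthetases was -0.51 in gut 1 against 0.27 to 1.10 in the others, that of cytosolic chaperones -0.24 against 0.19 to 0.79, and that of the COP9 signalosome -0.13 against 0.15 to 1.52. Of 2847 genes with a single gut against 8 others, gut 1 was that gut in 894, and the others in 162 to 338 each. The largest such departures upward were Smtn, the smooth muscle protein smoothelin (2.92 in gut 1 against a mean of -1.48 in the others), Zbtb18 (2.66 against -1.59), Cdc25b, a phosphatase that drives entry into mitosis (2.38 against -1.77), Dkk3 (2.57 against -1.38) and the interferon-induced Ifit3 (3.02 against -0.92). Downward they were Rmnd5b (-3.30 against 1.35), Ubash3b (-2.65 against 1.45), the lysosomal Arsa (-2.79 against 1.18), Klf6 (-2.26 against 1.42) and Mfsd12 (-1.88 against 1.62). Gut 1 also had one of the lower hybridisation control differences (-1.87; gut 9 had -2.18), whose part in its departure was not tested. Without gut 1, limma called 3374 genes higher and 2535 lower.

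**Figure D4:**
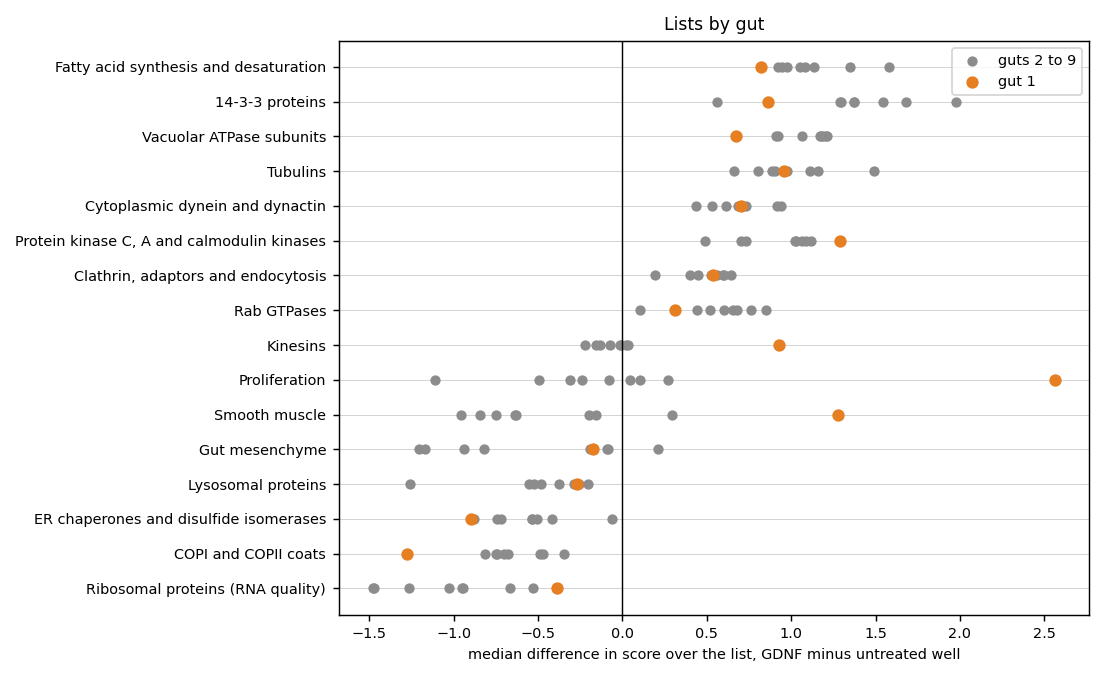
Median difference in score (treated minus untreated well) of 16 lists in each of the 9 guts; gut 1 is drawn in orange, the others in grey, and a vertical line marks 0. Gut 1 stands apart for proliferation markers at 2.56 and smooth muscle markers at 1.28, lies within the others for tubulins, and is the lowest for the vacuolar ATPase at 0.68 and the COPI and COPII coats at -1.28.

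Gut 2 had a pair only in batch 2, which the count over the 8 guts of batch 1 did not use. Its treated RNA was also read in batch 1 without a partner, and its untreated array resembled gut 3 as given above, so gut 2 is not a fully separate gut. Of 2236 genes higher in all 8 guts of batch 1, 92.6% were also higher in gut 2, where 51.4% of all genes were above 0. Of 1310 genes lower in those 8 guts, 91.1% were lower in gut 2, against 48.6% of all genes. The second reading of guts 8 and 9 in batch 2 gave 90.8% and 93.4% for the higher and 85.3% and 89.7% for the lower genes. Gut 3 gave 88.4% and 64.8%, with the untreated array that agreed least with its own repeat. In a stricter split, 2875 genes were higher in guts 1, 4, 5, 6 and 7 of batch 1, and 94.4% of them had a mean above 0 over the 4 pairs of batch 2, whose labels share no gut with those 5. Of the 2113 lower genes 82.6% had a mean below 0 there. Over guts 8 and 9 of batch 2 alone, without the arrays in doubt, the shares were 91.5% and 81.5%, against 52.8% and 47.2% of all genes. Batch 2 alone, with 4 guts, gave 0 genes at an adjusted p under 0.05 in either direction in limma, and 2178 higher and 1338 lower at an unadjusted p under 0.05.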

How the data were processed

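RNA of cultured ENCCs and of whole gut was read on Affymetrix mouse arrays. The deposited values are scores, not log2 intensities: within each array the probe sets take the quantiles of a normal distribution, from -4.08 to 4.08, as a check of the deposited values showed. RMA is named per the submitters' processing notes, with no version, and the step from there to scores is not stated. The deposited scores were used as they are, with no further normalisation. The number of arrays limits the precision, and scores carry no depth. Scores assume that arrays have the same distribution, so a shift of all RNAs at once cannot be seen.

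Of 45101 probe sets, 34945 named 1 gene by the platform annotation and entered here; a gene is the mean of its probe sets. Wells were paired by the gut number of the sample titles inside 1 batch, since the labels' protocol says that cells of 1 gut filled both wells. P-values measure the spread between these 9 guts. Differences were tested in limma 3.58.1 (lmFit and eBayes, R 4.3.3) with Benjamini-Hochberg adjustment over all 18193 genes at 0.05; the step was tested on simulated differences. No set test was run. The genes named were, beyond the 10 largest differences each way, those of 1 sign in all guts whose weakest gut was largest (30 each way), up to 4 such genes each way in each list, any RET transducer or marker, and up to 5 genes each way for the gut that departs most often. Others were chosen after their values were seen. The members and lists were chosen with earlier results of these data known. Alternatives left out guts, batches or probe sets, unpaired the wells, or changed the scale, weights, threshold and covariates. The 1 treated ENCC array without a partner in its batch was left out of every comparison. Promoters came from a RefSeq table (GRCm38.p6).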

Additional observations from a re-analysis of the deposited data

Results flagged for a closer look

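For 304 genes and 86 lists, the 9 differences were read for a single gut far from the other 8 (Dixon's ratio of gap to range). This picked out 29 genes and 7 lists. The cut picks about 1 in 20 groups of unselected normal values by chance. Most genes were named for these same differences, and the lists were chosen with earlier results known, so that rate does not apply here. Gut 1 stood apart in 17 of the genes and lists picked out, gut 2 in 8, gut 9 in 4, gut 8 in 3, and guts 4 and 6 in 2 each. Of the genes read, 10 had been named because gut 1 opposed the others. They make up 8 of its 17, so the tally is in part set by that choice. No cause was tested.

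In 8 genes named for that reason gut 1 went against the sign of all other guts, so these values only describe the choice. It was at 2.38 for the mitotic phosphatase Cdc25b (others -2.48 to -1.06), at 2.57 for the WNT pathway protein Dkk3 (others -2.01 to -0.49) and at 3.02 for the interferon-induced Ifit3 (others -2.08 to -0.35). It was at -3.30 for Rmnd5b (others 0.48 to 2.27), at -2.65 for Ubash3b (others 0.56 to 2.57) and at -2.79 for the lysosomal sulfatase Arsa (others 0.43 to 2.12). It was at -2.26 for the zinc-finger factor Klf6 (others 0.75 to 1.86) and at -1.88 for Mfsd12 (others 0.56 to 2.30). In 6 more genes it had the sign of the rest but stood apart in size. Syn1 was at 3.25 (others 1.37 to 2.07) and Tubb2a at 0.21 (others 1.16 to 1.86). Of the lower genes, the coatomer subunit Copb2 was at -2.78, the sorting nexin Snx5 at -3.03, the ribosome biogenesis factor Tsr1 at -3.39 and the F-box protein Fbxo28 at -2.97.

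In gut 2 differences were larger than in the rest for Fbxl15 (3.37), Pcdhb9 (2.81), the disulfide isomerase P4hb (-3.33), the lipid droplet protein Plin3 (-2.73), the formin Fhod1 (-2.43) and the TNF receptor Tnfrsf1a (-4.31, others -1.38 to -0.40). They were smaller for Dner (0.82, others 1.48 to 1.92) and Dnaja1 (0.34, others 1.27 to 2.18). Gut 4 was lowest for Rps25 (-2.59). Gut 6 was the weakest for the amino acid transporter Slc6a15 (1.10) and the spectrin Sptbn4 (0.58). Gut 8 was highest for Prkar2b (2.53) and Rap1gap2 (2.23), and at -1.08 for Plcg1, where the others spanned 0 (-0.34 to 0.22). Gut 9 was lowest for Prkg1 (-2.44).

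Of the lists, gut 1 had the highest median for proliferation markers (2.56, others -1.11 to 0.27) and kinesins (0.93, others -0.22 to 0.03), and the lowest for COPI and COPII coats (-1.28, others -0.82 to -0.35). Gut 4 had the lowest median for lysosomal proteins (-1.26, others -0.55 to -0.21). Gut 9 was lowest for SWI/SNF, CHD and NuRD remodellers (-1.05, others -0.50 to 0.01) and for structural microtubule-associated proteins (0.11, others 0.59 to 1.07), and highest for gut epithelium markers (1.13, others -0.17 to 0.44).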

How the results depend on the processing

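Leaving out 1 gut at a time gave 2987 to 3374 genes called higher and 2022 to 2535 called lower, and 2200 to 2491 and 1209 to 1650 genes of 1 sign in the 8 guts left. Batch 2 alone, with 4 guts, gave 0 calls either way in limma (2178 higher and 1338 lower at an unadjusted p under 0.05), and 3039 genes higher and 2135 lower in all 4. With only the 9183 genes of 1 probe set, and so fewer tested, 1362 were called higher and 831 lower, and 973 and 411 had 1 sign. At a threshold of 0.01, 1276 genes were called lower and 2306 higher. Other settings kept both counts within 1.5 times: batch 1 alone (3098 and 2226), hybridisation controls as a covariate (2797 and 1795), ranks (3418 and 2523) and array weights (3507 and 2626). Without the batch 2 pair of gut 3 they were 3357 and 2526, and without the batch 2 pairs of guts 2 and 3 (added after the data were seen) 3201 and 2272; the last ended the calls of Cdc25b, Mfsd12, Nav2, Prkcd and Sos2. With no replicate block, that is without the pairing by gut, 2979 genes were called higher and 1947 lower.

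Of 294 genes named above as called, leaving out a gut ended 0 to 3 calls, the missing pairing 6 and the covariate 13, with no sign turned. In limma the pairing mattered to Src, Sos2, Cers2, Creld2, Clic1 and Nde1, and the covariate to Actl6a, Calr, Cers2, Dlgap4, Klf3, Kmt2e, Msi2, Nav2, Ptbp1, Smarca4, Src, Tnfrsf1a and Yes1. The most reproducible probe set of each gene ended the calls of Actl6a, Chd2, Fgf9, Ptpn11 and Src. Taking each probe set singly ended those of Kifc2, Msi2, Nav2, Ptbp1, Ptpn11, Sec61a1, Smarca4 and Src. Batch 2 alone turned Copb1 (0.157) and Atp6v0e (0.254).

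Medians of lists that turned in batch 2 alone were those of Polycomb and Trithorax (0.054), RNA polymerase (0.084), translation factors (0.116), nuclear pore (0.036), ER translocation (0.181) and nucleotide synthesis (0.427). With only genes of 1 probe set, and so fewer members, those of G protein subunits (-0.184), KLF and SP factors (0.158), neuronal splicing (1.394), autophagy (-0.284), kinesins (-0.395), fatty acid oxidation (0.304) and glutathione genes (-0.126) turned. RNA polymerase also turned with the most reproducible probe set (0.048). For all other turns the cause was not tested.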
